A study of Homo sapiens with 26 samples.

Results

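The genes that copy, set and remove DNA methylation were followed as a set of 7: DNMT1, UHRF1, DNMT3A, DNMT3B, TET1, TET2 and TET3. They were chosen by gene symbol, with earlier results of these data known. All 7 were found among the 18165 genes of the first expression table and among the 17734 genes of the second. In the first table all 7 passed the filter on low values, which asks for 2 or more libraries at 1 FPKM or above. Of the 7, 6 passed in the second table and TET1 did not.

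Poly(A) RNA of LoVo cells, an established human colorectal cancer line, was sequenced in 26 libraries that form 13 groups of 2. The comparisons are between PIK3CA genotypes and between treatments: palbociclib, which blocks CDK4 and CDK6 and so entry into S phase; senescence-conditioned medium; and erlotinib, which blocks EGFR. In the first table, wild-type, E545K and H1047R cells were each taken in conditioned medium, in DMSO and in 0.5 µM palbociclib. In the second, E545K and H1047R cells had 0.5 µM palbociclib, by itself or together with 4 µM erlotinib. The protocols give 72 hours for palbociclib and DMSO, 48 hours for palbociclib with erlotinib, and a collection of control cells at 48 hours without naming the libraries. The medium was taken from cells made senescent by that palbociclib treatment, of a genotype not given in the sources used here. Nor do they give how long cells stayed in it, or the duration for the palbociclib arm of the second table. DMEM with 10% serum was the growth medium throughout. The mutations were brought in with lentiviral vectors, and for the palbociclib experiment the series names clone 2# of E545K and clone 3# of H1047R. Which clone the other experiments used is not given in the sources used here. With no second clone named for any group, mutation and clone cannot be told apart. Nothing says that the 2 libraries of a group came from separate cultures, so p-values measure the spread between these libraries, which may be technical. In bulk RNA, fewer cells with a transcript and less of it per cell cannot be told apart.

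DNA methylation in mammals sits mostly on cytosines that are followed by guanine. DNMT1 copies the pattern onto the new strand after replication, and UHRF1 brings it there by binding sites that are methylated on the old strand alone. DNMT3A and DNMT3B methylate new sites, while TET1, TET2 and TET3 oxidise methylated cytosine, the first step of its removal. Colorectal tumours are known for losing methylation over much of the genome while gaining it at some CpG islands. FPKM, the unit of both tables, counts fragments per length of transcript and per library total, so levels may be set side by side between genes. Changes are on the log2(FPKM + 1) scale with their standard error (SE). A change was called where limma's Benjamini-Hochberg adjusted p over all genes tested was below 0.05, and "rose" or "fell" is used of called changes.

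Start regions of DNMT1 and UHRF1 are shown because these genes moved together and with the genes of S phase, many of which are known targets of E2F factors. Sequences are from RefSeq on GRCh38.p14, where each of the 7 members matched, with 18 annotated starts in all. Windows of 300 bases, from 250 before to 50 after a start, were searched on both strands for the letters TTTCCCGC, TTTGGCGC, TTTCGCGC and TTTGCCGC, which are known E2F-type motifs. Of the 35116 windows searched, 3.31% held a match, and of the members' 18 windows 3 did, each with 1 match and no overlap of motifs. Capitals mark the match, which is on the opposite strand in the DNMT1 stretch and the first UHRF1 stretch. The DNMT1 stretch is chr19:10194937-10194966 on the minus strand, with the match at positions -2 to 6 from the start. The first UHRF1 stretch is chr19:4909476-4909505 on the plus strand, with the match at -14 to -7. The second is chr19:4909973-4910002 on the plus strand, before another annotated start, with the match at -160 to -153.
DNMT1: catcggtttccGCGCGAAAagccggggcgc
UHRF1, first start: gccgagttttcGCGGGAAAaaaatcagagc
UHRF1, second start: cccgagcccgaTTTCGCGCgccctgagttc
The DNMT1 stretch spans its RefSeq start, and the GENCODE annotation has longer transcripts whose first exon and 5′ UTR hold all of it. The first UHRF1 stretch spans its RefSeq start too, and GENCODE has a longer transcript whose first exon holds all of it. No window of the other 5 members held these letters. For DNMT3B the only window, chr20:32779602-32779901, lay inside the gene, which begins at 32762385. The 5′ ends of UHRF1 and TET3 also lay outside their windows, so for these genes that end was not searched. A match is a description of the letters and says nothing about binding in these cells. The members' windows held from 3 CpG pairs (the inner window of DNMT3B) to 46 (the third start of UHRF1 and the second of DNMT3A). The median of all windows was 14.

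Before the results, the limits of the libraries are given once. FPKM sums per library ran from 441643 to 524290, and replicates correlated across genes at 0.987 to 0.997. The H1047R palbociclib pair was the least alike, with a residual SD of 0.232 (log2), and its replicate 2 was the lower library for TET1, TET2, TET3, DNMT3A and DNMT3B. H1047R DMSO, at 0.170, and H1047R palbociclib of the second table, at 0.166, followed, and all other pairs lay at 0.0874 to 0.116. The wild-type DMSO libraries are the base of 8 of the 16 comparisons, and the median of all genes shifted with them. In DMSO the median log2 change against wild type was 0.25 (E545K) and 0.26 (H1047R). Within wild type it was 0.29 in conditioned medium and 0.14 under palbociclib. Where a response was set against the wild-type response, it was -0.23 (E545K) and -0.27 (H1047R) for conditioned medium, and -0.17 for the H1047R palbociclib response. For called members other than TET1, changes relative to these 7 medians are given as well. Changes of named partner genes, and most of those of uncalled members, are given without that step. PIK3CA itself was measured in every group at 5.17 to 15.7 FPKM, a level that does not show the mutations. Its means in DMSO, palbociclib and conditioned medium were 7.8, 10.2 and 15.7 in E545K. They were 5.4, 7.0 and 6.1 in wild type and 6.8, 5.2 and 6.3 in H1047R. In the second table too E545K was above H1047R. Of 7 epithelial markers, 6 reached 1 FPKM in every group of the first table (KRT20 was the exception), with KRT8 at 3436 or more in every library. Of 10 markers of other cell types 8 were in that table, and they summed to 10.4 to 20.7 FPKM per library outside wild-type conditioned medium and to 28.8 and 29.6 within it. COL3A1, a collagen of fibroblasts, reached 19.64. Their part in the results was not tested.

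DNMT1 was the most abundant member in each of the 26 libraries and TET1 the least. DNMT1 held 57.7% to 80.4% of the summed FPKM of the 3 methyltransferases, lowest in H1047R cells given palbociclib with erlotinib and highest in E545K cells in conditioned medium. TET3 held 37.4% to 70.6% of the summed FPKM of the 3 TET genes. The wild-type DMSO libraries, at 37.4% and 39.9%, were the lowest for TET3, and TET2 was the leading TET gene there. DNMT1 outweighed UHRF1 by 1.26 to 1.89 times in every library, a narrower span than that of either gene.

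**Figure D1:**
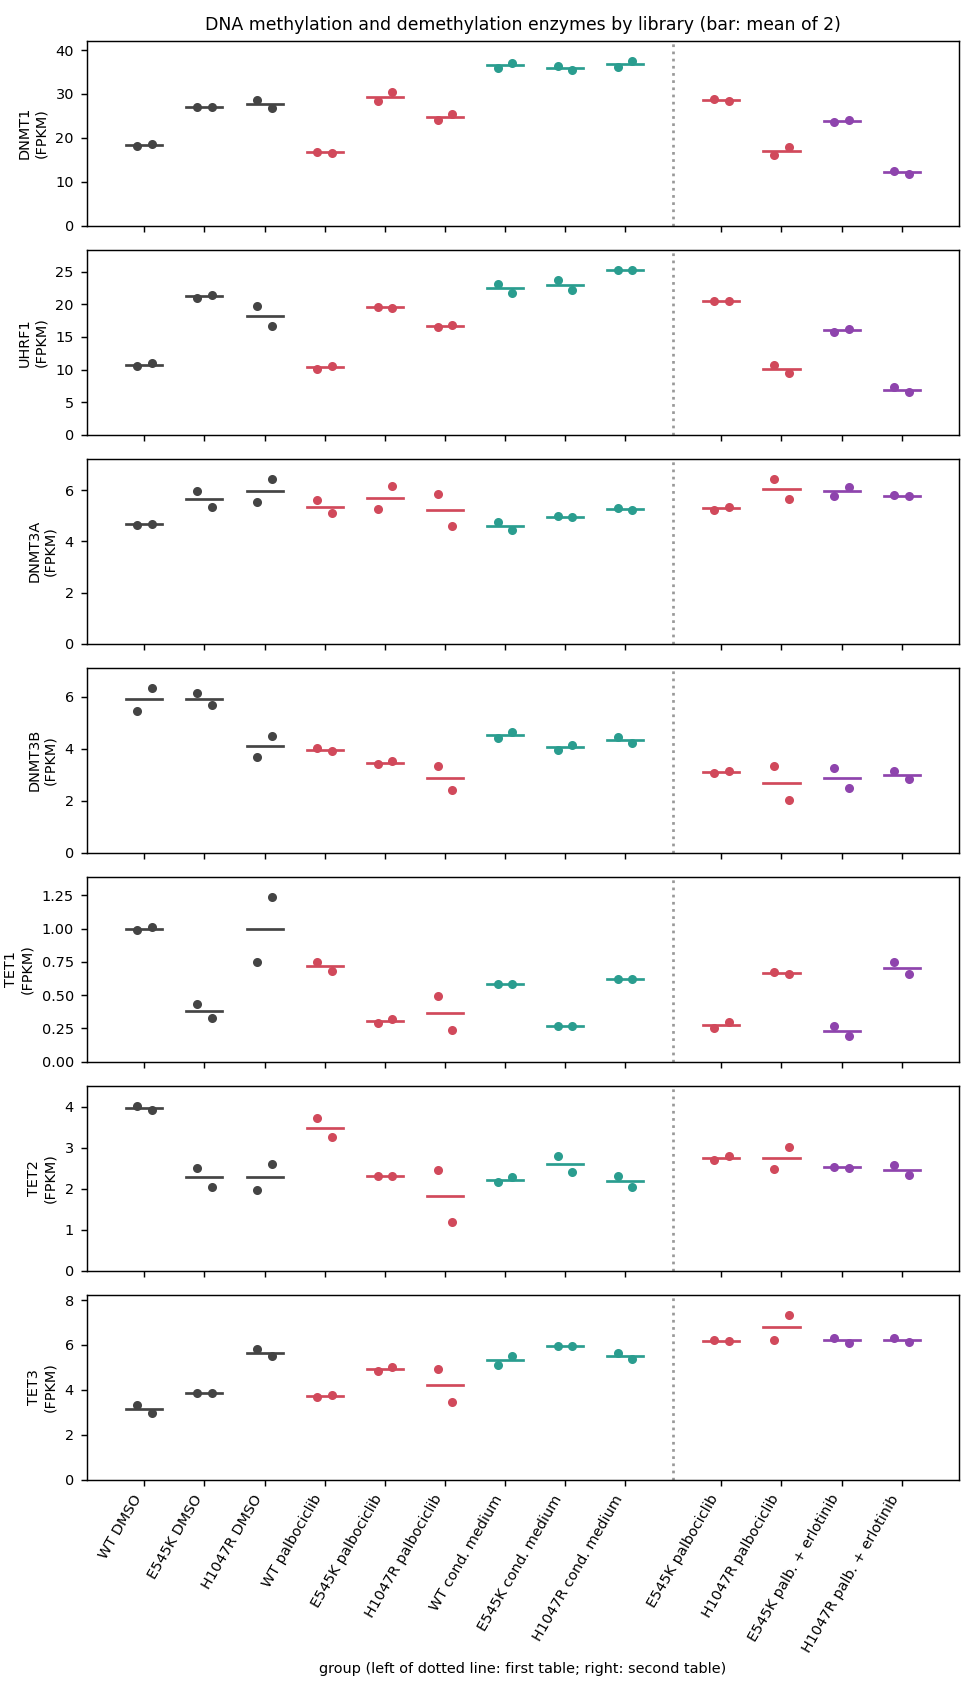
FPKM of each member (vertical axes, linear, from 0) in the 26 libraries (points) by group (horizontal axis), with bars at the mean of 2 and a dotted line between the tables. DNMT1 and UHRF1 share one pattern, low in wild-type DMSO and palbociclib and high in conditioned medium, while DNMT3A stays between 4.46 and 6.46 throughout.

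The order of the groups was much alike for the 2 maintenance genes. In the first table DNMT1 ran from 36.9 FPKM in H1047R conditioned medium to 16.7 in wild-type palbociclib, a 2.21-fold span of group means, and its libraries overlapped between 4 of the 8 pairs of neighbours in that order. UHRF1 ran between the same end groups, from 25.3 to 10.3, a 2.45-fold span with 4 of 8 neighbours overlapping. For DNMT1 the conditioned-medium groups overlapped each other and stood apart from the rest, and E545K palbociclib, H1047R DMSO and E545K DMSO formed the next set. The de novo enzymes were flatter or ordered otherwise. DNMT3A spanned 1.3-fold, and 7 of 8 neighbours overlapped. DNMT3B spanned 2.06-fold, from E545K and wild type in DMSO at the top to H1047R palbociclib at the bottom, with 5 of 8 neighbours overlapping. TET1 had the widest span, 3.70-fold, from 1.00 in wild-type DMSO to 0.27 in E545K conditioned medium, at levels where rounding to 2 decimals is coarse. TET2 led in wild-type DMSO and palbociclib (2.17-fold span), and TET3 was lowest in these same groups (1.90-fold span). In the second table, which was fitted apart, DNMT1 (2.35-fold) and UHRF1 (2.96-fold) were ordered E545K palbociclib, E545K with erlotinib, H1047R palbociclib, H1047R with erlotinib, with no overlap between any neighbours. DNMT3A, DNMT3B, TET2 and TET3 spanned 1.10-fold to 1.16-fold there.

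In DMSO, E545K cells had more DNMT1 and UHRF1 than wild-type cells and less TET2. Of the 7 members 2 rose and 2 fell (TET1 among them), where 48.4% of all genes tested rose and 10.4% fell. H1047R cells shared the rise of DNMT1 and UHRF1 and the fall of TET2, and also had more DNMT3A and TET3 and less DNMT3B, so that 4 members rose and 2 fell, where 49.9% of genes rose and 17.5% fell. Both comparisons share the wild-type libraries. Of 18 genes of S phase and proliferation 14 rose and 0 fell in E545K, and 14 rose and 1 fell in H1047R, and their part in these results was not tested. The share of rises among all calls depended on the scaling: 82.3% for E545K became 53.0% under quantile normalization and 43.8% with each library centred on its median, and 74.0% for H1047R became 51.5% and 41.6%. Against each other, 2 members were higher in H1047R (TET1 among them) and 2 were lower, where 21.6% of genes were higher and 20.0% lower.

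DNMT1, the maintenance methyltransferase (GRCh38 chromosome 19, 10133346 to 10194953), stood at 18.15 and 18.62 FPKM in wild-type DMSO libraries, 27.06 and 26.95 in E545K and 28.55 and 26.72 in H1047R. Both mutant lines lay above wild type, and they overlapped each other. The log2 change was 0.53 (SE 0.06, adjusted p 6.66e-06) for E545K and 0.56 (SE 0.06, adjusted p 2e-06) for H1047R, or 0.28 and 0.30 relative to all genes. UHRF1, the adaptor that reads hemimethylated sites (chromosome 19, 4903080 to 4962154), stood at 10.51 and 11.01 in wild type, 21.01 and 21.43 in E545K and 19.82 and 16.67 in H1047R. The wild-type pair was lowest and the E545K pair highest, with no overlap. UHRF1 rose by 0.92 in the E545K line (SE 0.08, adjusted p 2.67e-07) and by 0.71 in the H1047R line (SE 0.08, adjusted p 1.51e-06), or 0.67 and 0.45 relative to all genes. H1047R was lower than E545K by a log2 change of -0.21 (adjusted p 0.0395), a call lost without E545K replicate 1 (0.098) or 2 (0.157) or H1047R replicate 2 (0.396), under quantile normalization (0.0534) and with only these groups in the fit (0.166).

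DNMT3A, a de novo enzyme (chromosome 2, 25227874 to 25342590), stood at 4.64 and 4.70 in wild type, 5.99 and 5.33 in E545K and 5.54 and 6.43 in H1047R. The mutant pairs lay just above wild type and overlapped each other. Its change was 0.23 in E545K (SE 0.11, adjusted p 0.0827; 0.0488 with only these groups in the fit), turning negative under quantile normalization and median-centring, and in H1047R a call of 0.30 (adjusted p 0.0253) that turned to -0.13 under quantile normalization and -0.048 under median-centring. Relative to all genes it was 0.04. That call was also lost without wild-type replicate 1 (0.0884) or 2 (0.0758), without H1047R replicate 2 (0.183) and with only these groups in the fit (0.0506). DNMT3B, the other de novo enzyme (chromosome 20, 32762385 to 32809356), stood at 5.44 and 6.35 in wild type, 6.13 and 5.68 in E545K and 3.68 and 4.49 in H1047R. H1047R lay below both other lines, which overlapped. It fell by 0.44 against wild type (SE 0.12, adjusted p 0.00352; relative change -0.70), a call kept in all 11 alternatives. Against E545K it was lower by a log2 change of -0.45 (adjusted p 0.0063), lost without E545K replicate 1 (0.0506) or H1047R replicate 1 (0.0662). For E545K against wild type the change was 0.00 (adjusted p 0.976), and quantile normalization and median-centring gave -0.34 (adjusted p 0.00524) and -0.29 (0.0242).

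TET1, the least expressed TET enzyme here (chromosome 10, 68560337 to 68694487), stood at 0.99 and 1.01 in wild type, 0.43 and 0.33 in E545K and 0.75 and 1.24 in H1047R. It passed the filter through 1.01 and 1.24 alone, values of wild-type and H1047R DMSO libraries. Its differences from these groups are therefore given with no test, and nothing is drawn from its part in the counts of members called. E545K lay below both other lines, with a log2 difference of -0.54 from wild type, and H1047R lay 0.52 above E545K. TET2, whose loss is known from blood cancers (chromosome 4, 105145875 to 105279803), stood at 4.03 and 3.92 in wild type, 2.50 and 2.05 in E545K and 1.96 and 2.60 in H1047R. Wild type lay above both mutant lines, which overlapped. TET2 fell by 0.61 in each (SE 0.16, adjusted p 0.00548 in E545K and 0.00444 in H1047R), or by 0.86 and 0.87 relative to all genes. The first call was lost without E545K replicate 2 (0.0527) and the second without H1047R replicate 1 (0.05). TET3, the TET enzyme of the oocyte and early embryo (chromosome 2, 73983631 to 74135498), stood at 3.33 and 2.95 in wild type, 3.88 and 3.85 in E545K and 5.81 and 5.49 in H1047R. The 3 lines did not overlap, with H1047R highest. It rose by 0.68 in H1047R against wild type (SE 0.11, adjusted p 6.9e-05; relative change 0.42) and by 0.45 against E545K (adjusted p 0.00453), both kept in all 11 alternatives. The change of 0.23 in E545K was not called (adjusted p 0.0824) and turned to -0.13 under quantile normalization.

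**Figure D2:**
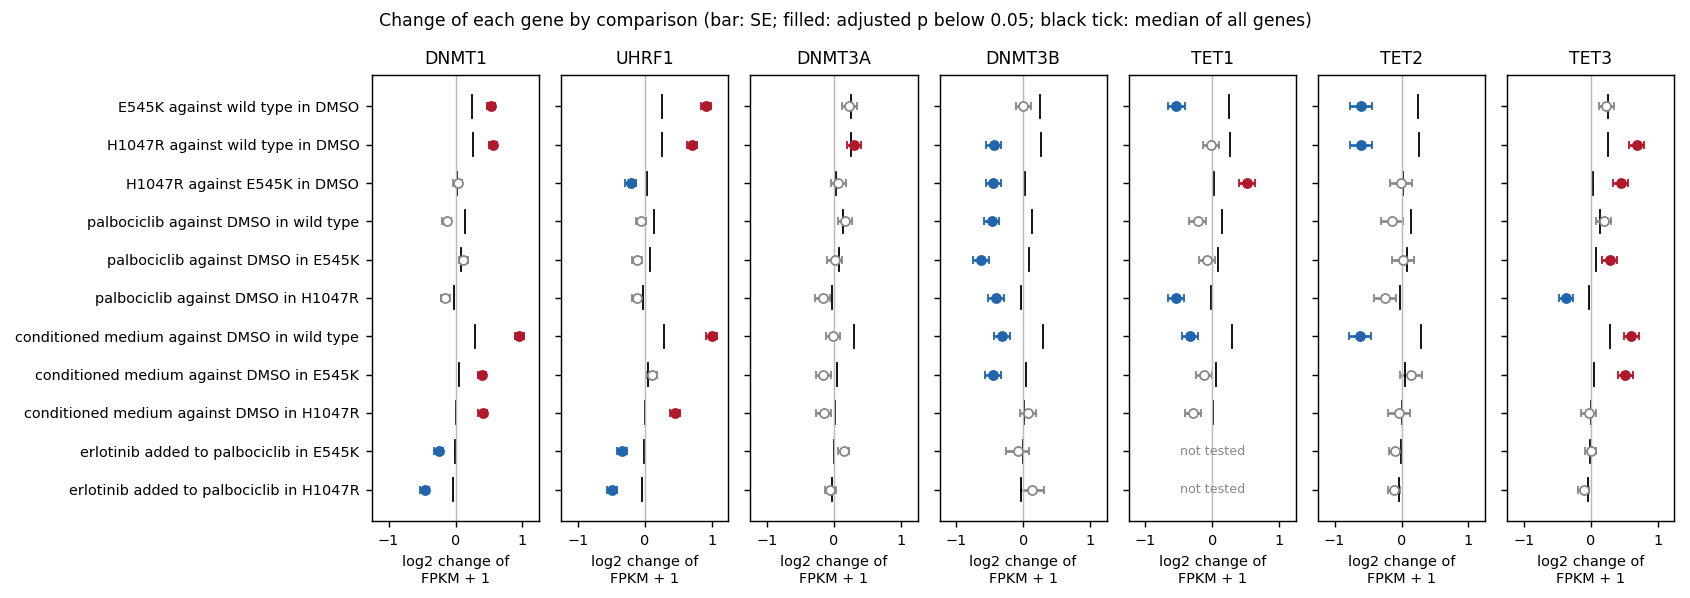
Log2 change of FPKM + 1 (horizontal axes) of each member in 11 comparisons (rows), with bars for the SE, filled points for an adjusted p below 0.05 (red rose, blue fell) and a black tick at the median change of all genes. DNMT1 and UHRF1 lie to the right in conditioned medium and to the left with erlotinib, and DNMT3B lies to the left under palbociclib in all 3 lines. Filled points of TET1 rest on the values that let it past the filter.

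In the first table palbociclib lowered DNMT3B in each of the 3 lines, and left DNMT1 and UHRF1 without a called change in any. The second table has no DMSO libraries to compare with. In wild-type cells 0 members rose and 1 fell, where 27.2% of genes rose and 6.77% fell. In E545K cells 1 rose and 1 fell, where 32.9% rose and 19.3% fell. In H1047R cells 0 rose and 3 fell (TET1 among them), where 19.5% rose and 19.8% fell. Scaling moved these splits: rises were 80.1% of all calls in wild type but 50.8% under quantile normalization and 43.5% under median-centring, 63.0% against 49.5% and 44.0% in E545K, and 49.6% against 38.9% on the TPM scale in H1047R. Of 18 genes of S phase and proliferation 12 fell and 1 rose in wild type, and 10 fell and 1 rose in H1047R. In E545K 5 fell and 5 rose, with a median change of -0.02. MKI67, the Ki-67 antigen, went from 49.0 ± 4.6 to 24.9 ± 1.0 FPKM in wild type (SD, n = 2). It went from 55.2 ± 9.3 to 36.3 ± 2.2 in E545K and from 58.4 ± 4.0 to 24.2 ± 10.6 in H1047R. The part of proliferation in the members' changes was not tested.

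DNMT3B went from 5.44 and 6.35 FPKM in wild-type DMSO libraries to 4.01 and 3.91 under palbociclib, from 6.13 and 5.68 to 3.40 and 3.53 in E545K, and from 3.68 and 4.49 to 3.32 and 2.40 in H1047R. Treated and untreated libraries did not overlap in any line, although H1047R came close. The log2 change was -0.47 in wild type (SE 0.12, adjusted p 0.00585; relative change -0.61), -0.63 in E545K (adjusted p 0.00036) and -0.40 in H1047R (adjusted p 0.0132). In E545K the call was kept in all 11 alternatives. In wild type it was lost without DMSO replicate 2 (0.0734), and in H1047R without DMSO replicate 2 (0.143), without palbociclib replicate 2 (0.152) and with only these groups in the fit (0.247). The response of neither mutant line differed from that of wild type by a called amount, at -0.16 (SE 0.16, adjusted p 0.529) for E545K and 0.07 (SE 0.16, adjusted p 0.775; 0.049 under quantile normalization) for H1047R. DNMT3A went to 5.63 and 5.10 in wild type, 5.26 and 6.15 in E545K and 5.87 and 4.59 in H1047R, with changes of 0.17, 0.01 and -0.17 and no call. Without H1047R palbociclib replicate 1 the last was called lower (adjusted p 0.0257).

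DNMT1 stood at 16.75 and 16.59 under palbociclib in wild type, 28.34 and 30.39 in E545K and 24.13 and 25.40 in H1047R. Treated libraries lay just below DMSO in wild type and H1047R and just above it in E545K. The changes were -0.13 (adjusted p 0.118), 0.12 (adjusted p 0.14) and -0.15 (adjusted p 0.0697). In wild type DNMT1 was called lower under quantile normalization (-0.22, adjusted p 0.0193) and median-centring (-0.30, adjusted p 0.0107). In H1047R it was called lower under quantile normalization (adjusted p 0.0159), on the TPM scale (0.01) and with no filter (0.0402). UHRF1 stood at 10.15 and 10.54 in wild type, 19.57 and 19.51 in E545K and 16.58 and 16.87 in H1047R, with changes of -0.05 (SE 0.08, adjusted p 0.644), -0.11 (0.236) and -0.11 (0.257). Its E545K libraries were below DMSO without overlap, and median-centring called that difference (-0.25, adjusted p 0.0311).

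Among the TET genes, TET3 fell in H1047R and rose in E545K. TET1 stood at 0.49 and 0.24 FPKM in H1047R, below both DMSO libraries, with a log2 difference of -0.54 that is given with no test. Its levels were 0.75 and 0.68 in wild type and 0.29 and 0.32 in E545K, with log2 differences of -0.22 and -0.08. TET3 fell in H1047R to 4.93 and 3.46, a change of -0.37 (SE 0.11, adjusted p 0.0168). That call was lost without DMSO replicate 1 (0.066) or 2 (0.0502), without palbociclib replicate 2 (0.214) and with only these groups in the fit (0.276). In E545K TET3 rose to 4.85 and 5.00, a change of 0.28 (SE 0.11, adjusted p 0.043) that was lost in 8 of 11 alternatives. Among these were DMSO replicate 1 (0.117) or 2 (0.131) and palbociclib replicate 1 (0.102) or 2 (0.146) left out. In wild type it stood at 3.70 and 3.75 with no call (0.19, adjusted p 0.198). TET2 stood at 3.73 and 3.26 in wild type, 2.32 and 2.3 in E545K and 2.46 and 1.20 in H1047R, whose replicate 2 was the lowest of all 26 libraries. Without H1047R palbociclib replicate 1 its change was -0.57 (adjusted p 0.00273), against -0.24 (0.255) with both.

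The difference in palbociclib response from wild type was called for 0 members in E545K by limma, with 1 (DNMT1, 0.25, SE 0.09, adjusted p 0.054) at an unadjusted p below 0.05. A positive difference was called for 10.9% of all genes and a negative one for 14.7%. DNMT1 was called there under quantile normalization (adjusted p 0.0232), with no filter (0.0288) and with only these groups in the fit (0.0405). In H1047R a positive difference was called for 0 members and a negative one for 1, where 5.16% and 17.4% of genes were called so. That was TET3, which changed by -0.37 in H1047R and by 0.19, not called, in wild type, a difference of -0.56 (SE 0.16, adjusted p 0.0215), or -0.40 relative to all genes. Its call was lost without wild-type DMSO replicate 2 (0.0853), wild-type palbociclib replicate 1 (0.0639) or 2 (0.0591), or H1047R palbociclib replicate 2 (0.0575), and with only these groups in the fit (0.139). Scaling counted too: under quantile normalization its adjusted p was 0.21 and under median-centring 0.0764, and positive differences went from 22.8% of all calls to 51.9% and 64.0%. DNMT3A (-0.34, adjusted p 0.125) was called there without H1047R palbociclib replicate 1 (0.0145).

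In conditioned medium DNMT1 rose in all 3 lines and reached nearly the same level in each. UHRF1 rose in wild type and H1047R. In wild type 3 members rose and 3 fell (TET1 among them), where 51.9% of genes rose and 18.6% fell. In E545K 2 rose and 1 fell, where 32.4% rose and 24.9% fell. In H1047R 2 rose and 0 fell, where 8.65% rose and 5.97% fell. Rises were 73.6% of all calls in wild type, 51.3% under quantile normalization and 45.6% under median-centring, and in E545K median-centring moved them from 56.6% to 42.9%. Proliferation genes moved the same way: of 18, 15 rose and 1 fell in wild type, 10 rose and 2 fell in E545K, and 12 rose and 0 fell in H1047R. Their summed level went from 567 and 572 FPKM in wild-type DMSO libraries to 973 and 1046 in conditioned medium. Their part here was not tested.

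DNMT1 stood at 35.97 and 37.08 FPKM in wild type, 36.46 and 35.37 in E545K and 36.15 and 37.61 in H1047R. The 3 lines overlapped, and every library lay above every DMSO library. It rose by 0.95 in wild type (SE 0.06, adjusted p 7.21e-09; relative change 0.66), by 0.40 in E545K (adjusted p 8.55e-05) and by 0.40 in H1047R (adjusted p 0.00109), all kept in all 11 alternatives. UHRF1 stood at 23.15 and 21.83 in wild type, 23.69 and 22.19 in E545K and 25.36 and 25.26 in H1047R. Wild type gained most, having started lowest. UHRF1 rose by 1.00 in wild type (SE 0.08, adjusted p 3.33e-08; relative change 0.71) and by 0.46 in H1047R (adjusted p 0.00171), where only the fit on these groups alone lost the call (0.0519). In E545K its change was 0.11 (SE 0.08, adjusted p 0.254), which median-centring turned to -0.01.

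DNMT3B stood at 4.41 and 4.64 in wild type, 3.93 and 4.16 in E545K and 4.44 and 4.21 in H1047R. The 3 lines lay close together, below DMSO in wild type and E545K and within it in H1047R. It fell by 0.32 in wild type (SE 0.12, adjusted p 0.0233; relative change -0.61) and by 0.45 in E545K (adjusted p 0.00369), and changed by 0.07 in H1047R (SE 0.12, adjusted p 0.731). The E545K call was kept in all 11 alternatives. In wild type it was lost without DMSO replicate 2 (0.186), without conditioned-medium replicate 1 (0.102) or 2 (0.0519), and on the TPM scale (0.176). DNMT3A stood at 4.75 and 4.46 in wild type, 4.98 and 4.94 in E545K and 5.29 and 5.23 in H1047R, with no call. Its change in wild type was -0.02, but -0.47 under quantile normalization (adjusted p 0.000225) and -0.36 under median-centring (0.00323). In E545K it was -0.16, and those scalings gave -0.26 (adjusted p 0.0171) and -0.28 (0.0193).

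TET2 stood at 2.16 and 2.28 FPKM in wild type in conditioned medium, 2.80 and 2.40 in E545K and 2.32 and 2.04 in H1047R. Wild type lost its lead over the mutant lines. TET2 fell there by 0.63 (SE 0.16, adjusted p 0.0033; relative change -0.92), kept in all 11 alternatives, while the mutant lines gave 0.14 (adjusted p 0.494) and -0.04 (0.908). TET3 stood at 5.10 and 5.52 in wild type, 5.96 and 5.95 in E545K and 5.65 and 5.37 in H1047R. It rose in the 2 lines that were lower in DMSO. The change was 0.61 in wild type (SE 0.11, adjusted p 0.000179; relative change 0.32), lost under quantile normalization (0.15). It was 0.52 in E545K (adjusted p 0.00106), kept in all 11 alternatives, and -0.03 in H1047R (adjusted p 0.891). TET1 stood at 0.58 and 0.58 in wild type, 0.27 and 0.27 in E545K and 0.62 and 0.62 in H1047R. The log2 differences from DMSO were -0.34, -0.12 and -0.29, and every conditioned-medium library lay below the DMSO libraries of its line. As above, those in wild type and H1047R are given with no test.

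The responses to conditioned medium differed from that of wild type for DNMT1, UHRF1 and TET2 in both mutant lines and for TET3 in H1047R. In E545K a positive difference was called for 1 member and a negative one for 2, where 10.0% and 37.1% of genes were called so. In H1047R a positive difference was called for 1 and a negative one for 3, where 10.4% and 40.5% of genes were called so. These comparisons share the 4 wild-type libraries with each other, and the wild-type DMSO libraries with the line comparisons above. Positive differences were 21.3% of all calls in E545K, but 46.2% under quantile normalization and 47.4% under median-centring, and 20.4%, 48.1% and 57.7% in H1047R. DNMT1 differed by -0.55 in E545K (SE 0.09, adjusted p 0.00017; relative -0.33) and by -0.55 in H1047R (adjusted p 0.00016; relative -0.28), the latter lost under median-centring (0.134). UHRF1 gave -0.89 in E545K (SE 0.11, adjusted p 1.61e-05; relative -0.66), kept in all 15 alternatives. In H1047R it gave -0.54 (adjusted p 0.000873; relative -0.27), lost under quantile normalization (0.061) and median-centring (0.215).

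TET2 gave the opposite sign, 0.77 in E545K (SE 0.23, adjusted p 0.0141; relative 0.99) and 0.59 in H1047R (adjusted p 0.0466; relative 0.86). It fell in wild type and had no call in the mutant lines. In E545K the call was lost without DMSO replicate 2 (0.0579) or conditioned-medium replicate 1 (0.056). In H1047R it was lost in 10 of 15 alternatives, with adjusted p up to 0.156. Among these were wild-type DMSO replicate 1 (0.102) or 2 (0.087), wild-type conditioned-medium replicate 1 (0.109) or 2 (0.0797), H1047R DMSO replicate 1 (0.154) and H1047R conditioned-medium replicate 1 (0.126) or 2 (0.0639) left out. TET3 differed in H1047R by -0.64 (SE 0.16, adjusted p 0.0035; relative -0.37), lost under quantile normalization (0.3) and median-centring (0.0831). DNMT3B gave 0.39 in H1047R (SE 0.16, adjusted p 0.0594), which both scalings called (8.01e-05 and 0.000742). It was also called without wild-type DMSO replicate 1 (0.044) or H1047R DMSO replicate 2 (0.0284).

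Erlotinib added to palbociclib lowered DNMT1 and UHRF1 in both mutant lines, and none of the other 4 members tested was called. In E545K 0 of the 6 members tested rose and 2 fell, where 7.10% of genes rose and 9.11% fell. In H1047R 0 rose and 2 fell, where 3.01% rose and 6.35% fell. There the rises were 32.1% of all calls, 45.9% under quantile normalization, 50.8% under median-centring and 20.5% on the TPM scale. The hours of palbociclib alone are not given in the sources used here, so time may differ between the arms. Proliferation genes moved with both: of 18, 13 fell and 1 rose in E545K, and 15 fell and 0 rose in H1047R. MKI67 went from 44.8 ± 0.3 to 27.6 ± 0.02 FPKM in E545K and from 11.0 ± 0.3 to 5.41 ± 0.17 in H1047R (SD, n = 2), and its part in the fall of DNMT1 and UHRF1 was not tested.

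DNMT1 went from 28.75 and 28.41 FPKM to 23.60 and 24.01 in E545K and from 16.13 and 18.00 to 12.54 and 11.74 in H1047R. The arms did not overlap in either line, and every H1047R library lay below every E545K library. DNMT1 fell by 0.25 on the log2 scale with E545K (SE 0.07, adjusted p 0.0352) and by 0.46 with H1047R (SE 0.07, adjusted p 0.00583). UHRF1 went from 20.46 and 20.53 to 15.82 and 16.30 in E545K and from 10.72 and 9.51 to 7.27 and 6.56 in H1047R. It too separated the arms and the lines. Palbociclib alone in H1047R averaged 17.1 FPKM of DNMT1 and 10.1 of UHRF1 here, against 24.8 and 16.7 in the first table. E545K averaged 28.6 and 20.5 here, against 29.4 and 19.5 there. No test compared the tables, and the hours of this palbociclib arm are not given. UHRF1 fell by 0.33 with E545K (SE 0.07, adjusted p 0.0209), and H1047R gave -0.49 (SE 0.07, adjusted p 0.00726). In E545K leaving out any 1 of the 4 libraries lost the call of DNMT1, at 0.169 and 0.149 without palbociclib replicate 1 or 2 and 0.183 and 0.153 without erlotinib replicate 1 or 2. It was lost too with no filter (0.0555), under quantile normalization (0.0692) and with the replicate block (0.0599). UHRF1 was lost likewise, at 0.113 and 0.119, and 0.136 and 0.106. In H1047R both calls were lost without erlotinib replicate 2 (0.0692 and 0.081) and with only these groups in the fit (0.0862 and 0.0987).

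DNMT3A stood at 5.24 and 5.35 without and 5.79 and 6.12 with erlotinib in E545K, and at 6.46 and 5.67 against 5.81 and 5.78 in H1047R. The changes of 0.14 (SE 0.08, adjusted p 0.254) and -0.05 (0.692) were not called. DNMT3B stood at 3.05 and 3.14 against 3.27 and 2.50 in E545K and at 3.33 and 2.01 against 3.13 and 2.82 in H1047R. It overlapped in both lines, and without H1047R palbociclib replicate 1 it was called higher (0.40, adjusted p 0.0452), against 0.14 (0.633) with both. TET2 stood between 2.34 and 3.03 in all 8 libraries and TET3 between 6.10 and 7.35, with no call. TET1 was not tested: it stood at 0.25 and 0.30 against 0.27 and 0.19 in E545K, and at 0.67 and 0.66 against 0.75 and 0.66 in H1047R. Its H1047R libraries lay above those of E545K here, as in DMSO, while under palbociclib in the first table the lines overlapped. The response of H1047R differed from that of E545K for 0 of the 6 members by limma, with 0 at an unadjusted p below 0.05. Among all genes, a positive difference was called for 0.899% and a negative one for 1.27%. Positive ones made up 41.5% of those calls, and 55.3% under median-centring. For DNMT1 that difference was -0.20 (SE 0.09, adjusted p 0.302), called without H1047R palbociclib replicate 1 (0.0406), and for UHRF1 -0.16 (SE 0.11, adjusted p 0.491).

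**Figure D3:**
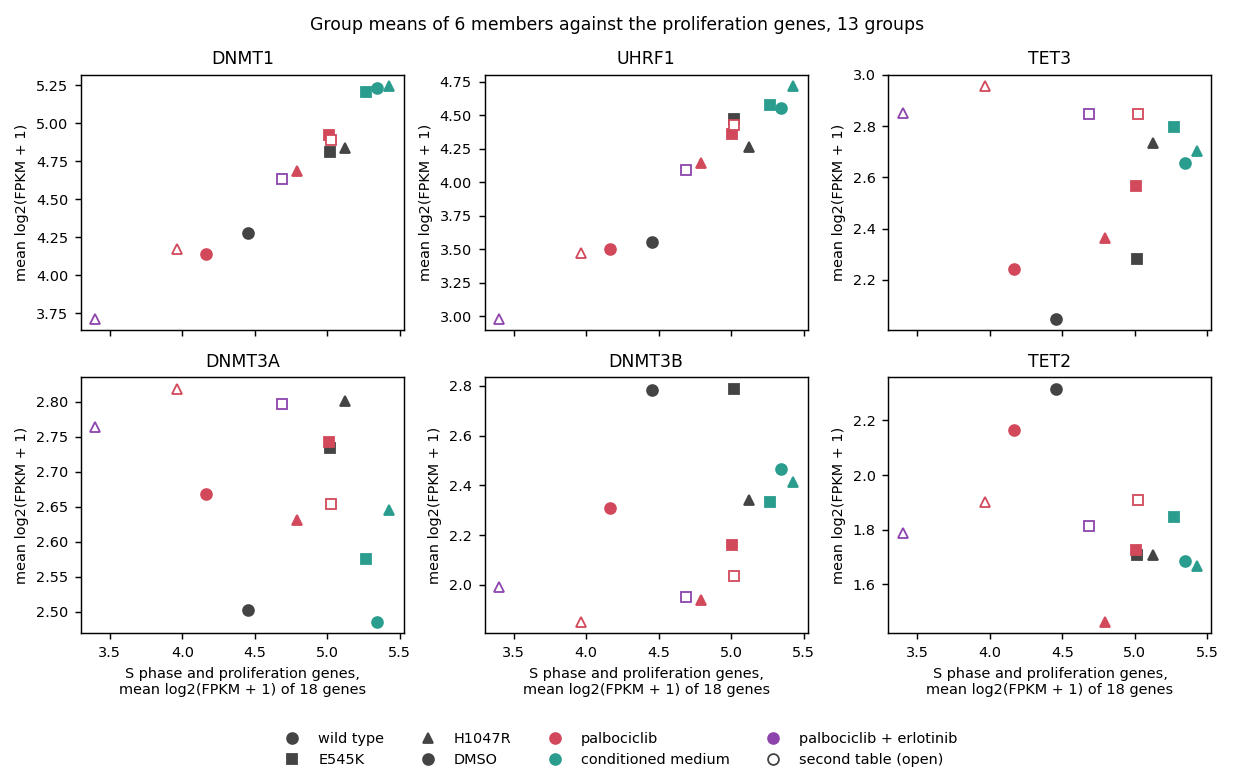
Mean log2(FPKM + 1) of 6 members (vertical axes) against the mean of 18 S phase and proliferation genes (horizontal axes) in the 13 groups (points: shape for line, colour for treatment, open for the second table). DNMT1 and UHRF1 lie along a rising line in both tables, and DNMT3A, DNMT3B and TET2 do not.

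DNMT1 and UHRF1 followed each other and the proliferation genes across groups. Over the 9 group means of the first table, which share libraries, lines and scaling, Pearson's r was 0.97 between DNMT1 and UHRF1. With the mean log2(FPKM + 1) of the 18 proliferation genes r was 0.98 for DNMT1, 0.97 for UHRF1, 0.83 for TET3 and -0.68 for TET2. DNMT3A (0.02) and DNMT3B (-0.04) showed no such relation, and TET1 gave -0.34. Over the 4 group means of the second table the values for TET3 (-0.31) and TET2 (0.50) had the opposite sign. Such values were common: 751 genes had r above 0.9 with DNMT1 and 622 with UHRF1. The genes most like DNMT1 were NAA50, an N-terminal acetyltransferase (r 0.997), HNRNPR, an RNA-binding protein (0.994), and USP14, a deubiquitinase of the proteasome (0.993). Those most like UHRF1 were NUP98, a nucleoporin (0.988), RECQL4, a DNA helicase (0.987), and NCAPH, a condensin subunit (0.986). TET3 had 587 genes above 0.9, led by DPY19L4 (0.988). TET2 had 87, led by GCSAM (0.987), DNMT3B 55, led by HBS1L (0.991), TET1 13, led by SPECC1 (0.972), and DNMT3A 5, led by CEP68 (0.928).

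Genes that work beside the maintenance pair rose in part in the mutant lines and fell in part under palbociclib, where DNMT1 and UHRF1 had no call. Of 10 partners, 7 rose and 2 fell in E545K and in H1047R against wild type in DMSO. Of all genes 48.4% and 49.9% rose, and 10.4% and 17.5% fell. The median changes of the list were 0.44 and 0.32, against 0.25 and 0.26 for all genes. HELLS, a remodeller needed for methylation of repeats, rose from 4.51 ± 0.21 FPKM in wild type to 10.1 ± 0.3 in E545K (log2 change 1.01, SE 0.12, adjusted p 8.15e-06) and to 13.9 ± 3.0 in H1047R (1.42, adjusted p 1.3e-07). PCNA, the sliding clamp that binds DNMT1, rose by 0.78 in E545K (adjusted p 1.29e-06). UHRF2, the paralog of UHRF1, went the other way, from 30.8 ± 0.3 in wild type to 16.7 ± 1.0 in H1047R (-0.84, adjusted p 1.6e-05). Under palbociclib 6 of 10 fell and 0 rose in wild type, and 3 fell and 2 rose in E545K. In H1047R 7 fell and 0 rose. Of all genes 6.77%, 19.3% and 19.8% fell in these lines, and 27.2%, 32.9% and 19.5% rose. The list's medians were -0.34, -0.13 and -0.37, against 0.14, 0.08 and -0.03 for all genes. CDCA7, which activates HELLS, fell by 0.56 in wild type (adjusted p 0.000275) and by 0.54 in H1047R (0.00033), and CDCA7L by 0.76 in H1047R (4.82e-06). In conditioned medium 7 rose and 2 fell in wild type, where HELLS reached 17.9 ± 1.7 (1.78, adjusted p 1.07e-08). In E545K and H1047R 2 and 3 rose and 0 fell. Of all genes 51.9%, 32.4% and 8.65% rose in wild type, E545K and H1047R, and 18.6%, 24.9% and 5.97% fell. With erlotinib 4 of 9 fell and 0 rose in each line, where 9.11% and 6.35% of all genes fell, PCNA by 0.49 in E545K (adjusted p 0.00197) and by 0.58 in H1047R (0.00156).

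Of 9 tested partners of the de novo enzymes, 4 rose and 0 fell in each mutant line against wild type in DMSO, a share near that of all genes (48.4% and 49.9%), with medians of 0.18 and 0.32. QSER1, which guards bivalent sites from DNMT3 enzymes, rose from 4.51 ± 0.13 to 8.11 ± 0.85 FPKM in E545K (0.72, adjusted p 0.00188) and to 9.62 ± 1.07 in H1047R (0.94, adjusted p 0.000164). Under palbociclib 1 fell in wild type, 3 rose and 2 fell in E545K, and 4 fell in H1047R. Of all genes 6.77%, 19.3% and 19.8% fell in these lines, and 27.2%, 32.9% and 19.5% rose. The medians were 0.08, -0.05 and -0.35. NSD2, a methyltransferase of histone H3 lysine 36, fell in all 3 lines: by 0.37 in wild type (SE 0.08, adjusted p 0.00248), 0.60 in E545K (adjusted p 1.92e-05) and 0.80 in H1047R (adjusted p 3.47e-06). In conditioned medium 4 rose in wild type, 5 rose and 2 fell in E545K, and 0 changed in H1047R by limma. Of all genes 51.9%, 32.4% and 8.65% rose in these lines, and 18.6%, 24.9% and 5.97% fell. With erlotinib 0 changed in E545K or H1047R, where 7.10% and 3.01% of all genes rose and 9.11% and 6.35% fell.

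Of the 8 readers of methylated DNA 4 rose and 0 fell in each mutant line against wild type in DMSO, 2 to 3 rose and 0 fell under palbociclib, and 1 to 4 rose and 0 fell in conditioned medium. In DMSO that is the share of all genes (48.4% and 49.9% rose), and the list's medians of 0.18 and 0.26 lay at or below theirs. Under palbociclib 27.2%, 32.9% and 19.5% of all genes rose, and in conditioned medium 51.9%, 32.4% and 8.65%, so the readers' counts stood near the background. Between H1047R and E545K in DMSO 1 was higher and 1 lower, where 21.6% of all genes were higher and 20.0% lower. ZBTB4, a zinc finger protein that binds methylated CpG, led: 4.22 ± 0.10 FPKM in wild type, 12.5 ± 0.1 in E545K (1.37, adjusted p 8e-09) and 13.4 ± 1.2 in H1047R (1.46, adjusted p 1.22e-09). Palbociclib raised it by 1.02 in wild-type cells, by 0.50 in E545K and by 0.33 in H1047R (SE 0.08 each, adjusted p 7.75e-07, 8.99e-05 and 0.00384). Conditioned medium raised it by 1.18 in wild type (adjusted p 6.07e-09). Of 8 tested demethylation partners, 4 rose and 1 fell in E545K and 5 rose and 1 fell in H1047R, near the shares of all genes (48.4% and 49.9% rose, 10.4% and 17.5% fell), with medians of 0.27 and 0.28. TDG, the glycosylase that cuts out the products of TET enzymes, rose from 9.75 ± 0.57 to 18.0 ± 1.0 FPKM in E545K (0.83, adjusted p 5.85e-06), and in wild type to 25.3 ± 2.9 in conditioned medium (1.29, adjusted p 2.49e-08). GADD45A, a stress gene also linked to demethylation, fell from 116 ± 2 to 57.7 ± 1.6 in E545K (-0.99, adjusted p 1.84e-06) and to 29.6 ± 1.7 in H1047R (-1.93, adjusted p 1.31e-09). In wild type GADD45A fell to 28.0 ± 5.6 in conditioned medium (-2.02, adjusted p 5.89e-10).

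Of 10 tested enzymes that supply the methyl donor or 2-oxoglutarate, 5 rose and 2 fell in E545K against wild type. In H1047R 9 rose and 1 fell. Of all genes 48.4% and 49.9% rose, and 10.4% and 17.5% fell. The list's medians were 0.25 and 0.55, the former that of all genes. D2HGDH, which clears 2-hydroxyglutarate, an inhibitor of TET enzymes, was at 2.47 ± 0.01 FPKM in wild-type cells, 3.43 ± 0.23 in E545K cells and 8.86 ± 1.22 in H1047R cells (1.50 against wild type, SE 0.10, adjusted p 1.59e-08). It rose under palbociclib by 0.96 in wild type (adjusted p 1.41e-05), 1.49 in E545K (5.37e-08) and 0.31 in H1047R (0.0282). MTR, methionine synthase, rose by 0.86 in E545K (SE 0.14, adjusted p 9.99e-05) and by 1.03 in H1047R (1.2e-05). In conditioned medium 9 rose and 0 fell in wild type, 8 rose and 1 fell in E545K, and 0 changed in H1047R by limma. Of all genes 51.9%, 32.4% and 8.65% rose in these lines, and 18.6%, 24.9% and 5.97% fell. The medians were 0.51, 0.64 and 0.20, against 0.29, 0.05 and 0.01 for all genes.

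Germline genes that promoter methylation is known to silence were near 0 in most libraries, and 4 of the 15 listed passed the filter in the first table. MAGEA6 and MAGEA3, near-identical copies whose reads may be split between them and whose values are therefore uncertain, passed it through wild-type libraries alone, so their difference between lines is given with no test. MAGEA6 stood at 8.71 ± 0.66 FPKM in wild-type DMSO, 11.4 ± 0.8 in palbociclib and 20.4 ± 0.9 in conditioned medium, against 0.025 ± 0.035 in E545K and 0.07 ± 0 in H1047R in DMSO. Palbociclib raised it in wild type by 0.36 (SE 0.09, adjusted p 0.00819) and conditioned medium by 1.14 (adjusted p 5.27e-08). DDX43, a germline helicase, was on in every library of the first table, at 5.69 to 10.30. DNA methylation itself was not measured in these libraries.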

How the data were processed

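Per the labels' protocols, poly(A) RNA of 26 libraries was sequenced. The authors deposited FPKM per gene and library in 2 tables. The submitters' processing notes name HISAT2 2.1.0, Bowtie2 2.3.4.3, RSEM 1.3.1, DESeq2 1.4.5 and GRCh38, without their roles. Low FPKM values were whole multiples of a common step too rarely to recover reads (46.1% and 52.1% within 0.15), so depth is unknown and no counting interval is given. Each table was fitted apart with limma 3.58.1 (R 4.3.3) on log2(FPKM + 1), with 1 coefficient per group and a mean-variance trend, over genes at 1 FPKM or more in at least 2 libraries. P-values were adjusted by Benjamini-Hochberg per comparison. The script was tested on simulated data. Alternatives were a pseudocount of 0.1, no filter, quantile normalization, median-centring, the TPM scale, only the groups compared, a replicate block, and each library left out. The members and lists were chosen with earlier results of these data known. Named partners are the 3 largest called changes per list and comparison, of which a part is printed. Figures used matplotlib 3.10.9.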

Additional observations from a re-analysis of the deposited data

Results flagged for a closer look

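The responses of the mutant lines and of wild type differed by limma's interaction test (adjusted p below 0.05) for 8 results, all of which rest on the 2 wild-type DMSO libraries. Under palbociclib, TET3 changed by -0.37 (log2) in H1047R and by 0.19 in wild type, a difference of -0.56. In conditioned medium, the E545K response differed from that of wild type by -0.55 for DNMT1, by -0.89 for UHRF1 and by 0.77 for TET2. The H1047R response differed by -0.55 for DNMT1, by -0.54 for UHRF1, by -0.64 for TET3 and by 0.59 for TET2. With 2 libraries per group, no group could be searched for a library far from the others.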

How the results depend on the processing

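Of 109 member results 43 were called, 19 of them in every alternative run, and 24 were lost in at least 1. Another 22 were called only in an alternative. The called results include TET1 for E545K against wild type, H1047R against E545K, palbociclib in H1047R and conditioned medium in wild type. Those of E545K against wild type and H1047R against E545K are among the calls kept in every alternative. All of them rest on the values that let TET1 past the filter. Nothing is drawn from its part in these counts or in those below. Where the main fit or the alternative made a call, the sign turned for DNMT3B and DNMT3A. For DNMT3B in E545K against wild type the change went to -0.34 under quantile normalization and -0.29 under median-centring. For DNMT3A in H1047R against wild type the change went to -0.13 and -0.048. A further 77 sign changes were in results called on neither side. The cause was not tested. Members called under palbociclib went from 1 to 4 (quantile normalization) and 3 (median-centring) in wild type, from 2 to 1 in E545K with no filter and on the TPM scale, and from 3 to 0 in H1047R when the fit held the compared groups alone. That fit gave 1 in place of 2 for conditioned medium in H1047R, and 0 in place of 2 for erlotinib in H1047R. The palbociclib response of E545K went from 0 to 1 with no filter, quantile normalization and the compared groups alone, and that of H1047R from 1 to 0 with median-centring and the compared groups alone. Erlotinib in E545K went from 2 to 1 with no filter, with quantile normalization and with the replicate block, the lost member being DNMT1 (adjusted p 0.0599 with the block). Replicate numbers did not pair the libraries of the first table consistently. The correlation of deviations was -0.56 to 0.55 (median 0.073) over 36 pairs of groups. It was above 0.1 in 15 of them and below -0.1 in 6, so some groups shared deviations. The replicate block moved no other count by over 1.5 times. Leaving out 1 library gave 2 to 3 members in place of 4 for H1047R against E545K. It gave 0 to 1, 1 to 1 and 1 to 5 for palbociclib in wild type, E545K and H1047R, 0 to 2 for the palbociclib response of H1047R, 0 to 0 and 0 to 3 for erlotinib in E545K and H1047R, and 0 to 1 for its difference. The depth is unknown, so what limits TET1, at or under about 1 FPKM, could not be told.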
